A study of Rattus norvegicus with 8 samples.

Results

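The 10 genes of the growth hormone, insulin-like growth factor (IGF) and insulin pathways followed here on rat arrays were *Igf1*, *Igfbp1*, *Igfbp2*, *Igfbp3*, *Igfals*, *Ghr*, *Socs2*, *Insr*, *Irs1* and *Irs2*. They were chosen by name through the transcript identifier printed on the array, not by any measured value. The identifiers were NM_178866, NM_013144, NM_013122, NM_012588, NM_053329, NM_017094, NM_058208, NM_017071, NM_012969 and ENSRNOT00000032918, in the order of the genes above. They covered 17 probes of 41012 and 44 spots of 43379. Male rats aged 7 weeks received lavender oil (LO), the essential oil of *Lavandula angustifolia*, at 5 mg/kg in 10% ethanol by stomach, or 10% ethanol alone as the control, once a day for 13 days. Each group held 6 rats. The sample characteristics named the strain Wistar and the growth protocol named F334. Total RNA of the spleen, the small intestine (about 20 cm from the duodenum) and the liver was pooled within each group, and LO and control RNA were hybridised together on 2-colour arrays. Each pair of pools was run on 2 arrays with the dyes exchanged, LO in Cy5 on replicate 1 and in Cy3 on replicate 2. The spleen and the small intestine gave 1 pair each, and the liver gave 2 pairs, called pool 1 and pool 2 here. The labels do not state how the liver pools differ.

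Growth hormone from the pituitary binds its receptor, encoded by *Ghr*, on hepatocytes and activates the transcription factor STAT5, which induces *Igf1*, *Igfals* and the feedback inhibitor *Socs2*. Circulating IGF1 travels mainly in a complex of IGF1, IGF-binding protein 3 and the acid-labile subunit, encoded by *Igfbp3* and *Igfals*, while IGF-binding proteins 1 and 2 carry IGF1 in smaller complexes. Insulin binds the receptor encoded by *Insr*, which signals through the adaptor proteins encoded by *Irs1* and *Irs2* and represses *Igfbp1* in the liver.

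Each tissue carried its defining markers. The summed normalized signal of the liver markers (10 probes, 8 of 8 genes found) was 1188660 to 1264250 in the 4 liver RNAs, against 141923 to 147120 in intestinal and 7338 to 7717 in splenic RNA. The sums of the small intestine markers (3 of 8 genes found) were 401019 to 431706 in the intestine. They were 126217 to 141041 in the liver and 83.4 to 90.7 in the spleen. Those of the spleen markers (3 of 8 genes found) were 36696 to 37050 in the spleen. They were 12683 to 13281 in the intestine and 219 to 253 in the liver. Pancreas markers summed to 755562 to 890364 in the small intestine, against 1009 to 1067 in the spleen and 3884 to 5202 in the liver. The tissues were never hybridised on the same array, so a difference between tissues cannot be told apart from one between arrays. The same holds for slides and scans where these went with the tissue.

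No probe of the 10 genes passed the test of LO against control in the liver. LO/control is the ratio of the LO pool to the control pool, averaged on the log2 scale over the 2 dye orientations, so that each liver pool counted as 1 replicate. Of the 17 probes, 16 were tested (well above background in a channel of at least 2 liver arrays). None passed an adjusted p of 0.05 in limma, where 0% of all 24134 probes tested were called in either direction. At an unadjusted p below 0.05, 1 of the 16 was found, *Igfbp1*, with 5.82% of all probes below it. The 8-array fits called 0 members too. The median log2 LO/control of the 16 probes was -0.0055, beside 0.00053 over all probes tested. The fold LO/control of the tested probes lay between 0.722 (*Insr*) and 1.13 (*Igf1*). The design held only 2 liver pools per condition, and nothing in the labels said that they came from different rats. The p-values rested on the spread between these pools, moderated by limma towards that of all probes (prior degrees of freedom 2.02). They cannot be taken to measure the spread between rats.

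The liver signal of *Igfbp1*, the insulin-repressed carrier of IGF1, was lower with LO on every liver array. The log2 LO/control values of its probe (A_44_P422836, NM_013144) were -0.21 and -0.50 in pool 1 and -0.09 and -0.31 in pool 2. All 8 liver signals stood well above background. The mean was -0.28 ± 0.11 (SD, n = 2 pools), a fold of 0.825 with a 95% interval of 0.698 to 0.974, and limma's adjusted p was 0.849. Of all probes tested, 3.33% lay below 1 on all 4 liver arrays. The intestinal arrays gave -0.01 each and the splenic arrays 0.04 and 0.08.

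The call on *Igfbp1* depended on how the ratio was made. The ratio above was the one the scanner software had computed. When the ratio was recomputed from the median spot signals (normexp background correction, offset 50, loess within arrays), the 4 liver values were -0.17, -0.43, -0.06 and -0.33, the fold was 0.841 (95% interval 0.781 to 0.906) and limma's adjusted p was 0.00454. *Igfbp1* was then 1 of 87 probes called lower, 0.36% of those tested, and 0.584% were called higher. The ratio itself moved little, from 0.825 to 0.841. Its SE on the log2 scale went from 0.076 to 0.053, and the prior degrees of freedom that limma estimated across probes from 2.02 to 50.9. No other member passed under that processing.

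**Figure D1:**
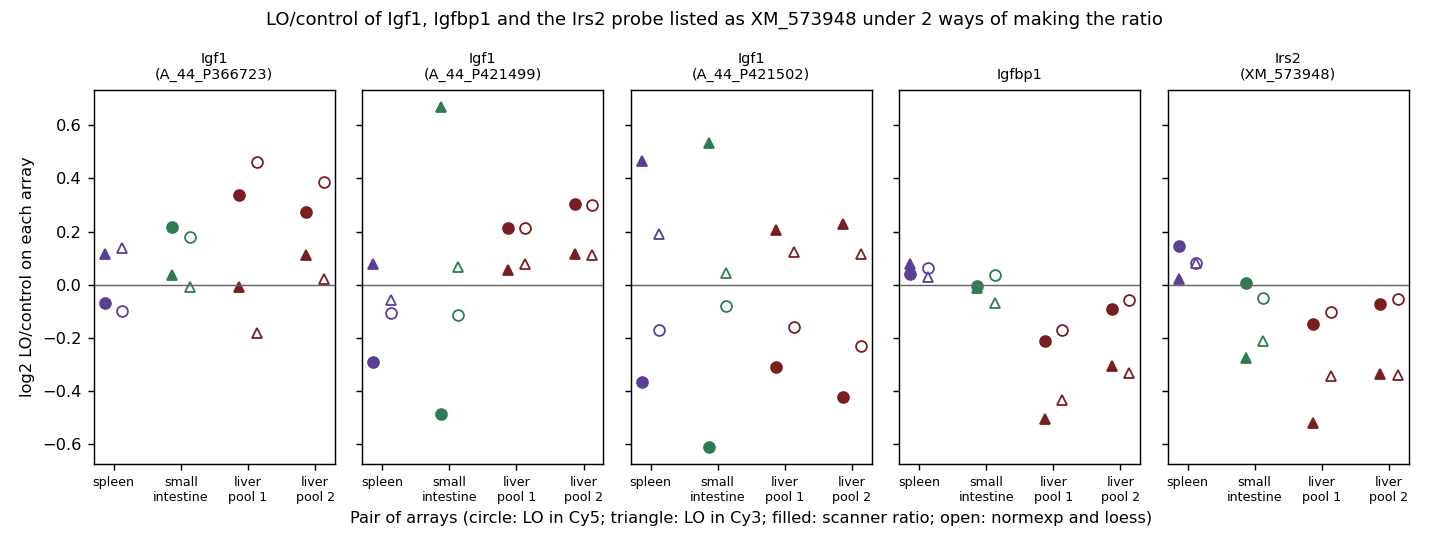
log2 LO/control (y axis) on each array for the 3 *Igf1* probes, *Igfbp1* and the *Irs2* probe listed as XM_573948, by pair of arrays (x axis). Circles are arrays with LO in Cy5 and triangles with LO in Cy3, filled for the scanner ratio and open for normexp with loess. *Igfbp1* and XM_573948 lie below 0 on all 4 liver arrays either way.

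The proximal promoters were read from RefSeq (build GRCr8) for the 8 of 10 members listed there. *Socs2* and *Irs2* were not among them. Windows of 250 bases before the start were searched on both strands for TGTTTTG and TATTTTG (cores of the insulin response element), GTTAATNAT (the core bound by HNF1) and TTCNNNGAA (the site bound by STAT factors). *Igfbp1* and *Igf1* held matches and are shown for that reason, 5′ to 3′ on the strand of the gene, with the matches in capitals. The *Igfbp1* window is chr14:86261027-86261276 on the plus strand and the *Igf1* window chr7:24172282-24172531 on the plus strand.
*Igfbp1*: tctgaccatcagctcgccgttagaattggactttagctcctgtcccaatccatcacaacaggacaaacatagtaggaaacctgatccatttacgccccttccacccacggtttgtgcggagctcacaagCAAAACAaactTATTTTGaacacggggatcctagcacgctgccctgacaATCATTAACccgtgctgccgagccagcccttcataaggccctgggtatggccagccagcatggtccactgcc
*Igf1*: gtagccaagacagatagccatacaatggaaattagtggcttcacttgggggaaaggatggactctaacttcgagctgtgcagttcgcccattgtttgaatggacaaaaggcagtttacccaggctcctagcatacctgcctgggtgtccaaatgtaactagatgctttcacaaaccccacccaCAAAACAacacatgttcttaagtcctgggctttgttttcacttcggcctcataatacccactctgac

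The *Igfbp1* window held 3 matches. The first lay 121 to 115 bases before the start and reads TGTTTTG on the other strand. The next was TATTTTG at 110 to 104 bases. The last, at 72 to 64 bases, fits GTTAATNAT on the other strand. Over all 33469 promoters of the table, TGTTTTG occurred in 5.46%, TATTTTG in 4.46% and GTTAATNAT in 0.666%. *Igf1* held 1 match, at 67 to 61 bases before the start, which also reads TGTTTTG on the other strand. TTCNNNGAA was in 7.67% of all promoters and in none of the 8 windows. A match is a run of letters and no evidence of binding.

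For *Igf1*, the hormone itself, the 3 probes differed. Probe A_44_P366723 gave log2 LO/control values of 0.34 and -0.01 in pool 1 and 0.27 and 0.11 in pool 2, with a fold of 1.13 (95% interval 0.991 to 1.29, limma's adjusted p 0.849). Probe A_44_P421499 gave 0.21, 0.05, 0.30 and 0.12, above 1 on all 4 arrays as were 3.77% of all probes, with a fold of 1.13 (0.979 to 1.30, limma's adjusted p 0.849). Both were brighter in the LO pool by less than the test could separate from the spread. Probe A_44_P421502 gave -0.31, 0.20, -0.42 and 0.23, negative with LO in Cy5 and positive with LO in Cy3, with a fold of 0.949. On that probe the sign followed the dye on the splenic (-0.36 and 0.46) and intestinal arrays (-0.61 and 0.53) too.

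*Igfals* and *Igfbp3*, which encode the partners of IGF1 in the large serum complex, gave folds near 1 in the liver. The *Igfals* values were -0.07 and 0.07 in pool 1 and 0.27 and 0.26 in pool 2, so the pools differed by more than the arrays within a pool. Its fold was 1.097 (0.885 to 1.36, limma's adjusted p 0.884). The probes for *Igfbp3* gave folds of 0.990 (0.862 to 1.14) and 0.994 (0.871 to 1.13). *Igfbp2*, a carrier in smaller complexes, gave -0.20, 0.06, 0.14 and 0.08 and a fold of 1.02 (0.852 to 1.21).

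The receptor gene *Ghr* and the feedback inhibitor *Socs2* gave folds near 1 and did not pass. The 3 *Ghr* probes gave liver folds of 0.979, 0.998 and 1.02, with 95% intervals that together ran from 0.854 to 1.18. Their sign followed the dye in both liver pools, positive or 0.00 with LO in Cy5 and negative with LO in Cy3. *Socs2* was steadier within a pair than between the pools, at -0.06 and -0.15 in pool 1 and 0.06 and 0.05 in pool 2, with a fold of 0.982 (0.830 to 1.16).

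Among the insulin signalling genes the sign of LO/control often went with the dye. *Insr*, the insulin receptor, gave 0.10 and -0.42 in pool 1 and 0.47 and -2.03 in pool 2, and the same order, positive with LO in Cy5 and negative with LO in Cy3, on the intestinal (0.90 and -1.61) and splenic arrays (1.12 and -0.73). Its liver fold of 0.722 had a 95% interval of 0.477 to 1.09 (limma's adjusted p 0.852). *Irs1*, a substrate of both receptors, gave -0.02, -0.01, 0.07 and -0.22 and a fold of 0.970 (0.846 to 1.11).

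The 3 probes for *Irs2*, the main insulin receptor substrate of hepatocytes, differed in brightness. In the liver A_44_P503503 was well above background in 6 of 8 signals, A_44_P257518 in 3 and A_44_P400393 in 0. Their identifier (ENSRNOT00000032918) had no match in the reference tables, so the gene name rests on the list of members alone. Probe A_44_P503503 gave 1.62 and -1.20 in pool 1 and 0.82 and -0.91 in pool 2, and A_44_P257518 gave 2.11, -1.58, 0.66 and -0.51. Both changed sign with the dye, and their folds of 1.06 (0.862 to 1.30) and 1.12 (0.940 to 1.34) are means of opposed values. Probe A_44_P400393 was not well above background on any array and was not tested. Its values were -0.00 and -1.31 in pool 1 and 1.77 and 0.83 in pool 2.

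A further probe (A_44_P684795) carried XM_573948, an accession that the gene descriptions listed with the study call a predicted *Irs2* transcript. Neither the scanner files nor the reference tables name it. It lies outside the 10 identifiers and was added after its values had been seen. It was well above background on all 8 arrays and gave -0.15 and -0.52 in pool 1 and -0.07 and -0.34 in pool 2, lower with LO on all 4 liver arrays. The mean was -0.27 ± 0.09 (SD, n = 2 pools), a fold of 0.830 (0.710 to 0.970, limma's adjusted p 0.849). With normexp and loess the fold was 0.864 and limma's adjusted p 0.0264. Of the member probes tested, 1 was also below 0 on all 4 liver arrays, *Igfbp1*, as were 3.33% of all probes. The tested *Irs2* probes had means above 0, but of values that changed sign with the dye.

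**Figure D2:**
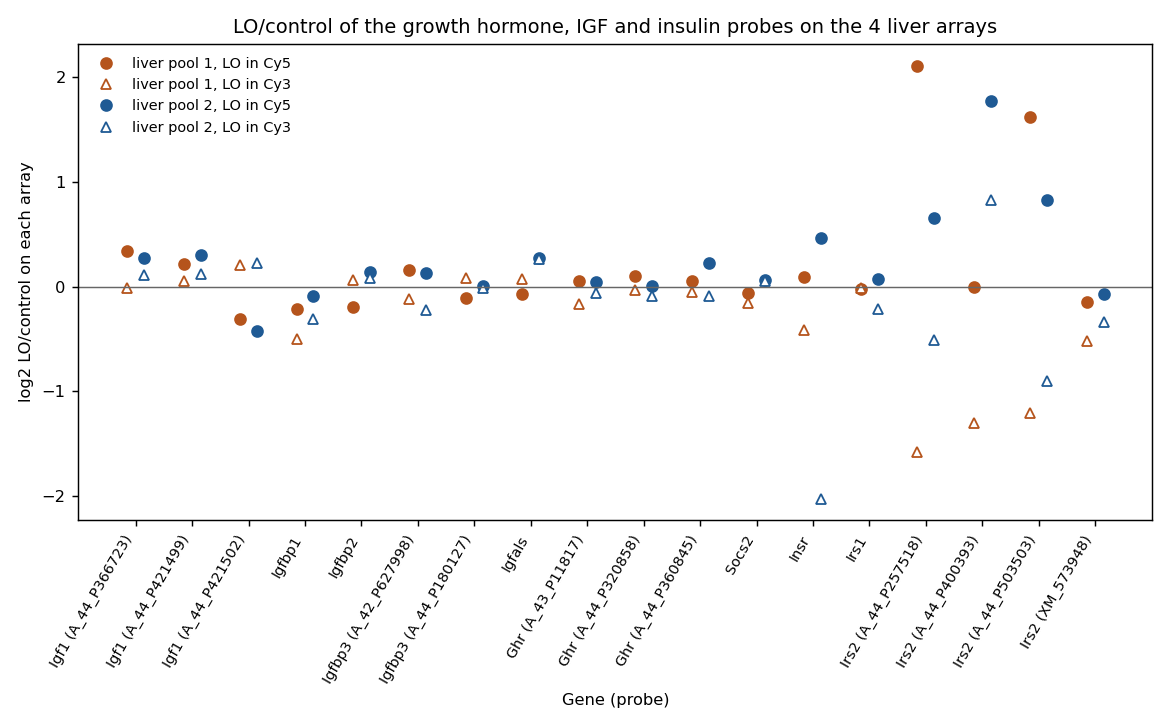
log2 LO/control (y axis) of the 17 member probes and XM_573948 (x axis) on the 4 liver arrays, coloured by pool, with filled circles for LO in Cy5 and open triangles for LO in Cy3. *Igfbp1* and XM_573948 lie below 0 on all 4 arrays, while the points of *Insr* and the *Irs2* probes are spread widely.

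The arrays of a pair opposed each other over the whole array, not only for these genes. Across 30592 probes, the Pearson correlation of log2 LO/control between the arrays of a pair was -0.60 for spleen, -0.63 for intestine and -0.72 for both liver pools. Among probes well above background in all 4 signals it was -0.40 to -0.58. The 17 member probes did not share a sign on the arrays of a pair in 13 cases for spleen and 12 for intestine. In liver pool 1 this was so in 12 cases and in pool 2 in 10. The splenic count includes *Ghr* A_44_P360845 and *Irs2* A_44_P400393, each exactly 0 on 1 array. Of all probes bright enough in the tissue, 15.4% were above 1 and 18% below 1 on both splenic arrays. On both intestinal arrays the shares were 14.6% and 13.2%. Such a share was not computed for a single liver pool. The direction of LO/control rests on the dyes as the labels and methods state them.

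**Figure D3:**
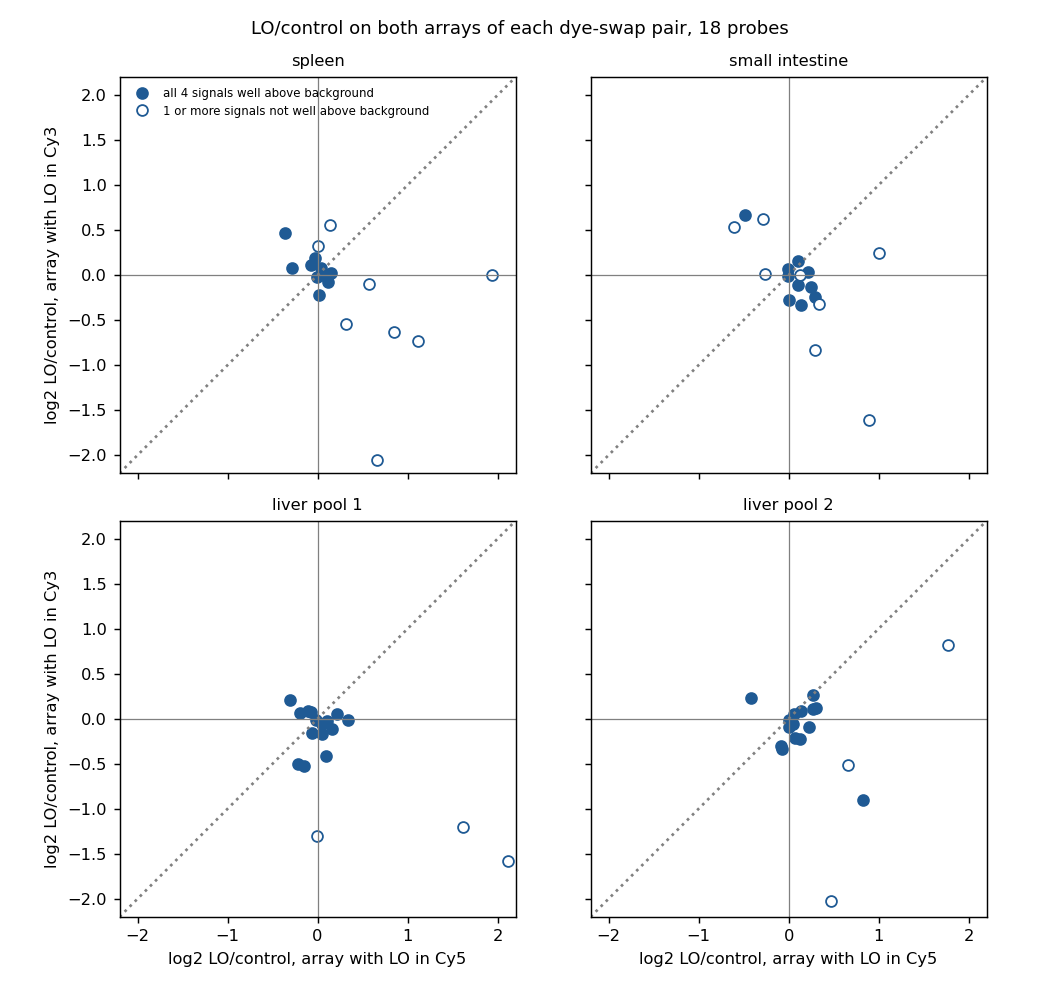
log2 LO/control on the array with LO in Cy5 (x axis) against the array with LO in Cy3 (y axis) for the 18 probes in each of the 4 pairs, with the dotted line where both arrays are equal. Filled points had all 4 signals well above background. *Insr* and the *Irs2* probes A_44_P257518 and A_44_P503503 lie at the lower right in the liver panels, positive with LO in Cy5 and negative with LO in Cy3.

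The fold cut-offs and the P threshold given in the study's methods were required here on both arrays of a pair. A spot passed as higher if Cy5/Cy3 was at least 1.5 with LO in Cy5 and at most 0.75 with LO in Cy3. It passed as lower if Cy5/Cy3 was at most 0.75 with LO in Cy5 and at least 1.5 with LO in Cy3. The scanner software's P had to be below 0.01 on both arrays. By this rule, 0 of 44 member spots passed in any pair. Among all spots, the shares that passed as higher and as lower were 0.00692% and 0.00923% for spleen, 0.0115% and 0.00923% for intestine, 0.0138% and 0.00692% for liver pool 1, and 0.0161% and 0.0231% for liver pool 2. Without the P, 1 of 44 passed, the *Irs2* probe A_44_P400393, as higher in liver pool 2. The shares of all spots were then 0.51% higher and 0.743% lower in that pool, 0.408% and 0.401% for pool 1, 0.36% and 0.353% for intestine, and 0.399% and 0.152% for spleen. The same probe was at -0.00 and -1.31 in pool 1, so the pools gave opposite pictures of it.

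In the small intestine and the spleen there was 1 pool per condition, so no test over pools was possible. In a limma fit on all 8 arrays, where the dye orientations stand in for replicates, 0 members were called in either tissue, where the share of all probes called was 0% for spleen and 0.00327% for intestine. The median log2 LO/control of the 17 probes, averaged over the dyes, was 0.027 in the intestine and 0.049 in the spleen. *Socs2* was above 1 on both intestinal arrays (0.10 and 0.16) and just below on both splenic ones (-0.01 and -0.02). In all, 14.6% of probes were above 1 and 13.2% below 1 on both intestinal arrays, and 15.4% above 1 and 18% below 1 on both splenic ones. *Igfals* was above 1 on both arrays of both tissues (1.002 and 0.24 in the intestine, 0.14 and 0.55 in the spleen). None of its 4 intestinal signals and 1 of its 4 splenic signals were well above background. In the spleen, the liver markers were above 1 on both arrays for 6 of 10 probes, with a median log2 LO/control of 0.52, and their part in the *Igfals* value was not tested.

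The other genes of the pathway gave no call in the liver either. Of the lists compiled for this report, 0 of 5 tested probes for ligands and hormones, 0 of 3 for other receptors, 0 of 4 for IGF binding and release, 0 of 12 for growth hormone signalling and 0 of 38 for insulin and IGF signalling passed limma's adjusted p of 0.05. Their median log2 LO/control values were 0.023, 0.15, 0.070, 0.023 and 0.012. At an unadjusted p below 0.05 in limma, there were 0, 0, 0, 0 and 2 probes, beside 5.82% of all probes tested. The 2 of 38 are a share near that of all probes. They were *Foxa2*, a hepatocyte transcription factor (fold 0.722), and 1 of the *Shc1* probes (fold 1.22, and 1.09 on the other probe). *Shc1* encodes an adaptor of receptor tyrosine kinases.

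*Foxa2* was lower with LO on every liver array, at -0.28 and -0.41 in pool 1 and -0.65 and -0.55 in pool 2 on the log2 scale. Its adjusted p was 0.849 with the scanner ratio and 1.2e-07 with normexp and loess in limma. It was singled out after its values had been seen.

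Of the genes whose expression in liver depends on the sex-specific rhythm of growth hormone, 0 of 11 tested probes passed, with a median log2 LO/control of 0.061. At an unadjusted p below 0.05 in limma, with 5.82% of all probes below it, there was 1, *Cyp2c12*, a steroid hydroxylase typical of female rat liver. It gave 0.85 and 0.99 in pool 1 and 0.84 and 0.92 in pool 2, a fold of 1.86, higher on 4 of 4 arrays with little spread. Its adjusted p was 0.849 with the scanner ratio and 4.99e-15 with normexp and loess in limma. *Cyp2c11*, the male counterpart, gave 0.36, -0.59, 0.44 and -0.34, a fold of 0.977. *Cyp2c12* and *Cyp2c11* too were singled out after their values had been seen, and probes of the P450 2C family can share signal between near-identical genes.

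The levels of the 10 genes differed far more between tissues than between LO and control. Levels were log2 normalized signals of the 8 pooled RNAs, each averaged over both dyes, and were compared within a probe only. The fit took the 8 as separate RNAs, though the control and LO RNA of a pair were read on the same arrays. The intervals and p-values do not allow for that sharing. In limma, 13 of 16 tested probes were higher in the liver than in the spleen and 1 was lower, where 31.9% and 38.3% of all 30592 probes were called higher and lower. Against the small intestine, 13 were higher in the liver (31% of all probes) and 2 lower (33.8%). At least 4-fold higher in the liver were 11 probes against the spleen (10.9% of all probes) and 9 against the intestine (8.32%). Their median log2 difference was 2.42 against the spleen and 3.06 against the intestine, beside -0.10 and -0.018 over all probes. Between the small intestine and the spleen, 6 were higher in the intestine (22.8% of all probes) and 4 in the spleen (29.4%). In such bulk tissue, fewer cells of a type and less RNA per cell cannot be told apart.

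The processing set the size of these differences more than their direction. With normexp on median signals the same contrasts were smaller for most probes, and the value is given beside each gene where it moved by more than 1.5 times.

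*Igfals*, with processed signals, had the largest difference among the members. Its log2 levels were 12.41 and 12.67 in the control liver pools and 12.41 and 12.94 in the LO liver pools, against 3.93 and 4.28 in splenic RNA and 3.22 and 3.85 in intestinal RNA. No liver RNA came near the other tissues. The liver was 363-fold above the spleen (95% interval 257 to 511, limma's adjusted p 8.34e-07), where 1 of 4 signals was well above background. In the intestine no signal was, and the liver was at least 358-fold higher there. For a probe dim in a tissue, such a bound takes the lowest signal well above background on each array as the level. With normexp the log2 differences were 5.598 against the spleen and 5.74 against the intestine, the latter below the bound above. Both lay below the lowest value of *Igf1* probe A_44_P366723 against the intestine under any alternative (6.22).

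*Ghr* was ordered liver, small intestine, spleen on all 3 probes. On the brightest, A_44_P320858, the liver levels were 13.20 and 12.86 in the controls and 13.24 and 12.82 with LO, the intestinal levels 9.55 and 9.54 and the splenic levels 6.46 and 6.37. The liver was 98.3-fold above the spleen (74.2 to 130) and 11.2-fold above the intestine (8.47 to 14.8), and the intestine 8.76-fold above the spleen (6.34 to 12.1). Probe A_43_P11817 gave 46.0-fold, 10.3-fold and 4.47-fold, with 2 of 4 splenic signals well above background. Probe A_44_P360845, dim in the spleen, gave at least 32.2-fold, 16.7-fold and at least 1.93-fold. All of these passed in limma, with adjusted p-values of 0.00184 or less, though with normexp the last, intestine over spleen on A_44_P360845, did not (0.0802). With normexp the log2 differences between liver and spleen were 5.27, 2.96 and 2.67 on A_44_P320858, A_43_P11817 and A_44_P360845, the last below the bound above. Those between liver and intestine on the latter probes were 2.27 and 2.26. Those between intestine and spleen on the 3 probes were 2.08, 0.70 and 0.41.

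*Igf1* was ordered liver, spleen, small intestine, and its probes disagreed on the distances. Probe A_44_P366723 had levels of 16.50 to 16.77 in the liver, 14.15 and 14.17 in splenic RNA and 10.25 and 10.38 in intestinal RNA. It put the liver 5.59-fold above the spleen (4.73 to 6.62) and 80.4-fold above the intestine (68.0 to 95.2). Probe A_44_P421499 put the liver 55.9-fold and 150-fold above them, and A_44_P421502 put it 8.48-fold and 11.7-fold above. The spleen exceeded the intestine 14.4-fold, 2.68-fold and 1.37-fold, and the last did not pass (limma's adjusted p 0.0715, and 0.0029 to 0.523 over the alternatives, with 0.00425 without liver pool 1, 0.0029 without pool 2 and 0.0439 without replicate 2). With 75th percentile scaling the log2 difference of A_44_P366723 was 3.70 against the spleen and 6.97 against the intestine. With normexp those of A_44_P421499 were 4.74 and 5.30 and those of A_44_P421502 were 1.40 and 1.51, and the intestine stood at -0.55 to the spleen on A_44_P421499. Both control and LO RNAs of a tissue lay on the same side of the others on every probe.

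**Figure D4:**
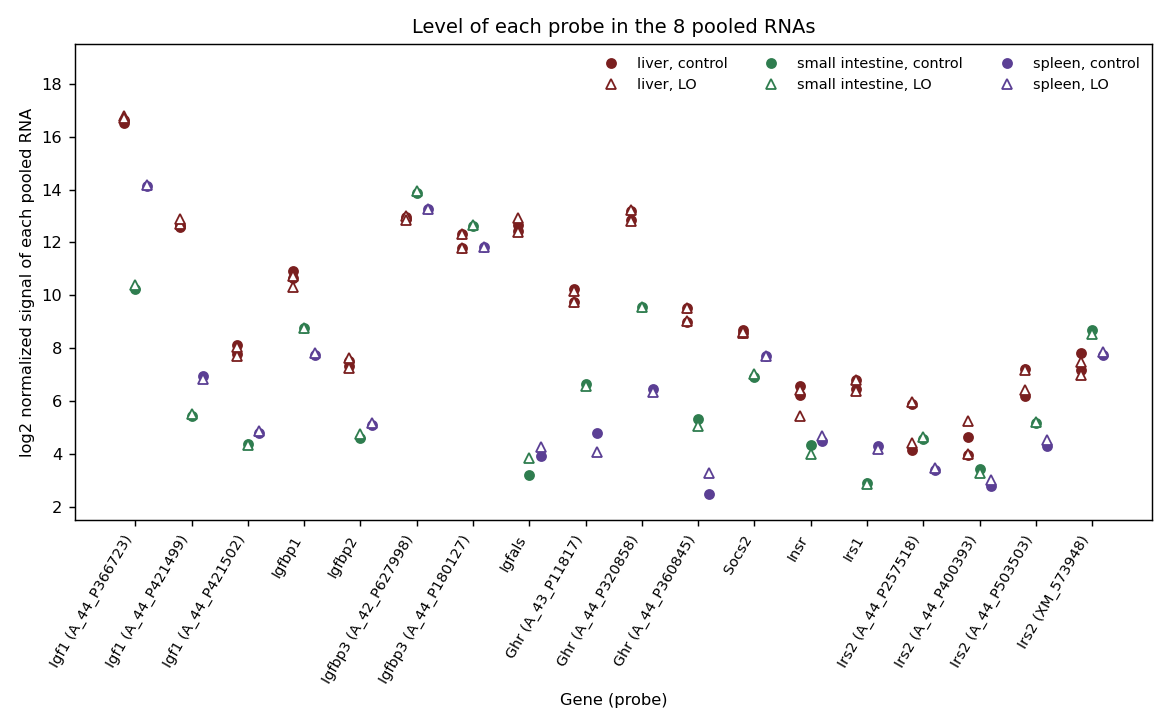
log2 normalized signal (y axis) of each probe (x axis) in the 8 pooled RNAs, coloured by tissue, with filled circles for control and open triangles for LO. Control and LO points of a tissue lie close together for most probes, and the liver points lie highest for *Igf1*, *Igfbp1*, *Igfbp2*, *Igfals*, *Ghr*, *Socs2* and *Irs1*. Heights are comparable within a probe only.

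The binding proteins split. *Igfbp1* levels were 10.66 and 10.91 in control liver, 10.30 and 10.71 in LO liver, 8.77 and 8.76 in the intestine and 7.75 and 7.81 in the spleen. The liver was 3.68-fold above the intestine (2.76 to 4.92) and 7.29-fold above the spleen (5.45 to 9.74), and the intestine 1.98-fold above the spleen (limma's adjusted p 0.00734). *Igfbp2* was 4.93-fold higher in the liver than in the spleen and 6.73-fold higher than in the intestine, with log2 differences of 1.097 and 1.25 with normexp.

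*Igfbp3* was the member highest in the small intestine. The intestine exceeded the liver 1.97-fold (1.66 to 2.33) on probe A_42_P627998 and 1.51-fold (1.07 to 2.13) on A_44_P180127, and the spleen 1.55-fold and 1.78-fold. The second intestinal call was lost without replicate 1 (limma's adjusted p 0.0608), without the filter on dim probes (0.0511) and with 75th percentile scaling (0.236). Against the spleen, A_42_P627998 was lower in the liver by 0.34 on the log2 scale (limma's adjusted p 0.0226), which was lost without replicate 1 (0.0805) and turned to 0.50 higher with 75th percentile scaling. Probe A_44_P180127 was not called there (log2 difference 0.24), but was without liver pool 2 (0.49) and with 75th percentile scaling (0.83), while without liver pool 1 it stood at -0.015.

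Of the neighbouring members on chromosome 14, *Igfbp1* was thus highest in the liver and *Igfbp3* in the intestine. The pancreas markers in the intestinal RNA moved with the same contrast, and their part in the intestinal levels was not tested. The insulin genes *Ins1* and *Ins2* were higher in the intestine too, with log2 differences (liver minus intestine) of -3.40 and -2.97. So was the prolactin receptor *Prlr* at -5.28, a size that rests on dim liver signals.

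*Socs2*, *Insr* and *Irs1* were each highest in the liver. *Socs2* levels were 8.57 to 8.68 in the liver, 7.70 and 7.71 in splenic RNA and 6.91 and 7.04 in intestinal RNA, the liver 1.87-fold (1.58 to 2.21) and 3.11-fold (2.63 to 3.68) above them. *Irs1* was 5.12-fold higher in the liver than in the spleen and at least 5.63-fold higher than in the intestine, where no signal was well above background. *Insr* was 3.005-fold higher than in the spleen (1.78 to 5.07, limma's adjusted p 0.00444) and 3.99-fold higher than in the intestine. Without replicate 1 the first of these did not pass (limma's adjusted p 0.105). With normexp the log2 differences against spleen and intestine were 0.75 and 0.98 for *Irs1*, the latter below the bound, and 0.56 and 0.58 for *Insr*.

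*Irs2* depended on the probe and the pool. A_44_P503503 was 5.01-fold higher in the liver than in the spleen (2.79 to 8.97, limma's adjusted p 0.00138) and 2.94-fold higher than in the intestine (1.64 to 5.27, limma's adjusted p 0.00859), with log2 differences of 0.85 and 0.68 with normexp. XM_573948 was higher in the intestine than in the liver, 2.38-fold (1.58 to 3.58, limma's adjusted p 0.00507), and did not pass against the spleen (0.745-fold, 0.494 to 1.12), except without liver pool 1 (log2 difference -0.72, adjusted p 0.00216 in limma) and with the replicate block (0.0393). A_44_P257518 did not pass in either comparison. Against the spleen, where it was dim, limma's adjusted p was 0.05, and it passed without liver pool 1 (log2 difference 2.50) and without liver pool 2 (0.83), without replicate 2 (1.98), with 75th percentile scaling (2.22) and with the replicate block. With normexp the difference was 0.35. Its level was 4.14 and 4.40 in pool 1 and 5.90 and 5.97 in pool 2, so that against the intestine the log2 difference was 1.34 with pool 2 alone and -0.33 with pool 1 alone.

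The liver pools themselves differed on several members, in control and LO RNA alike. The control of pool 2 exceeded that of pool 1 on the *Irs2* probes A_44_P257518, 3.39-fold, and A_44_P503503, 2.03-fold, and the LO pools did so 2.97-fold and 1.71-fold. On A_44_P257518, 1 of 4 signals in pool 1 and 2 of 4 in pool 2 were well above background, so its folds rest on dim signals. XM_573948 went the other way, with pool 1 1.57-fold above pool 2 in the controls and 1.43-fold with LO. The 3 *Ghr* probes were higher in pool 1 as well, 1.27-fold to 1.47-fold in the controls and 1.34-fold to 1.41-fold with LO. *Igfbp1* was higher in pool 2, 1.19-fold in the controls and 1.33-fold with LO. Control and LO RNA of a pool were read on the same arrays, so the LO folds are no independent repeat of the control folds. A difference between pools cannot be told apart from one between arrays. With 1 RNA per pool and condition these differences had no test.

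**Figure D5:**
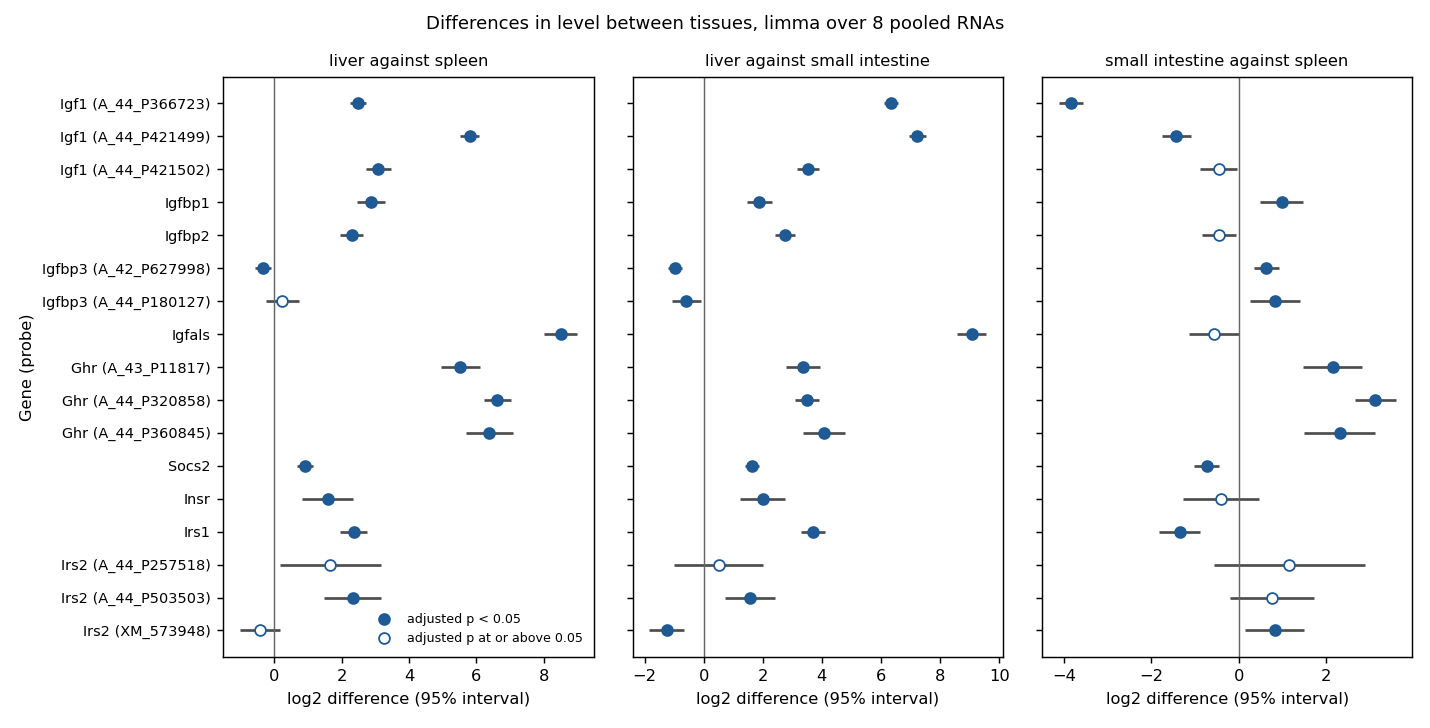
Differences in log2 level between tissues (x axis, with 95% intervals from limma over the 8 pooled RNAs) for the 16 member probes tested and XM_573948 (y axis), with filled points where the adjusted p was below 0.05. In the left and middle panels nearly all points lie to the right of 0, where the liver is higher, with *Igfbp3* and XM_573948 as the exceptions.

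Of the insulin and IGF signalling list (29 of 41 genes found, 40 probes), 21 were higher in the liver than in the spleen and 10 lower, where 31.9% and 38.3% of all probes were, with a median log2 difference of 0.47. Among those higher in the liver were *Pck1*, which encodes a gluconeogenic enzyme (10.76 on the probe A_44_P517258 and 6.57 on A_44_P414625, log2), and *Foxa2* (8.33). Of the growth hormone signalling list (10 of 11 genes found, 12 probes), 3 were higher in the liver and 4 lower, shares near those of all probes, with a median of -0.33. Lower were *Ptpn6*, a phosphatase of blood cells (-2.57), 1 *Stat3* probe (-1.91), *Jak2*, the kinase bound to the growth hormone receptor (-1.64), and *Sh2b1* (-0.44). Higher were *Socs3* (1.12), 1 *Ptpn11* probe (1.03) and *Stat5b* (0.87). The other probe of *Stat3* and that of *Ptpn11* did not pass. In the IGF binding list *Igfbp4* was higher in the liver on both probes (5.52 and 3.90, log2) and *Igfbp6* lower, at -1.497.

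The sex-patterned growth hormone targets were listed as genes of the liver, so a higher signal there was set by the choice of list. Of 13 probes (12 of 14 genes found), 12 were higher in the liver than in the spleen, where 31.9% of all probes were. The median log2 difference of the 13 was 8.84, a size that rests on dim splenic signals for most of them. By the level over the 8 pooled RNAs, the genes most like *Igf1* (probe A_44_P366723) were *Ctsf*, *Gsta1*, *Apoe*, *G0s2* and *Serping1*, with Pearson correlations of 0.999 each among 25883 probes. With 8 RNAs from 3 tissues such values mostly describe the order of the tissues. Of the other member probes, 13 were bright enough in at least 1 tissue to be compared. The most like it were those of *Socs2* (0.984) and *Irs1* (0.966), and the least like were those of *Igfbp3* (-0.64 and -0.99).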

How the data were processed

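Levels of RNA were measured on 8 Agilent 2-colour rat arrays, scanned images of which the authors had read with Feature Extraction 11.0.1.1. The deposited log10 ratios of Cy5 to Cy3 and the deposited P-value of each spot were the software's, as were the processed intensity values, background-subtracted and dye-normalized. The deposited series table held the same log10 ratios except where the scanner ratio was 0 (largest difference 0.166). Log2 values were computed here from the authors' log10 ratios.

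Ratios were turned to LO over control, spots of a probe averaged, 34 non-uniform spots left out, and the arrays of a dye-swap pair averaged. LO/control was tested in limma 3.58.1 (R 4.3.3) with 1 mean per tissue and Benjamini-Hochberg adjustment at 0.05. The liver alone has replicates, giving 1 residual degree of freedom. Tissue levels were log2 processed signals after Aquantile normalization, tested with tissue and LO as terms (4 residual degrees of freedom, prior 1.78). A probe was tested if well above background on at least 2 arrays. The same replicate number marks the same dye orientation, and same-numbered deviations correlated at 0.63 on average and at least 0.55. The share of probes with both channels well above background was 44.3% to 64.7% per array, and the small number of arrays limits the precision. The members, lists and tests were chosen with earlier results of these data known. All probes of the 10 members were named, and others of a list only past a threshold, apart from those said to be chosen after their values were seen. Alternatives were another background correction, scaling, filter, fit or set of arrays. The scripts were tested on simulated data.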

Additional observations from a re-analysis of the deposited data

Results flagged for a closer look

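On the log2 scale, LO/control of *Igfbp1* was lower in the liver than in the spleen by a difference of -0.34 (means -0.28 and 0.06), with every liver array below 0 and both splenic arrays above. The XM_573948 probe gave -0.35 in the same way (means -0.27 and 0.08). In limma over 24134 probes, where the single splenic pair was assumed to vary like the liver pools, the adjusted p of both differences was 0.9999. *Igfbp1* also differed in sign between the small intestine and the spleen (-0.069), as did *Socs2* (0.15, means 0.13 and -0.015), each with an adjusted p of 1 in limma. Between the liver pools, *Socs2* moved in opposite directions (pool 1 minus pool 2 -0.17, means -0.11 and 0.057), and that difference was not tested.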

How the results depend on the processing

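In the liver 0 probes were called for LO/control. The count was 228 with normexp and loess on the median signals, a column chosen after seeing the data, and 2 when both dyes had to be well above background on each liver array. It was 0 without replicate 1 and 282 without replicate 2, where dye and LO cannot be told apart. The cause of the change under normexp was not tested. The replicate block, with dye as its number, changed no liver LO call of a member and gave 7 rather than 4 members higher in the spleen than in the small intestine. The median LO/control (log2) in the spleen, 0.049, was 0.014 with normexp. Leaving out a replicate gave 0 to 0.042 there and 0.0067 to 0.13 in the intestine. The fold rule passed 1 member spot without the P and 5 with either replicate left out (2.84% of member spots over the 4 pairs, beside 2.04% of all spots without replicate 1 and 2.97% without replicate 2). With 75th percentile scaling, which moved the median of all probes from -0.10 to 0.14 for liver against spleen and from -0.018 to 0.18 for liver against intestine, 0 members were higher in the spleen than in the liver and 1 in the intestine, as was 1 without the filter. Left-out replicates or pools gave 0 to 1, 1 to 3 and, for spleen over intestine, 4 to 7. For these tissue counts the shares of all probes called under each setting are not given here. A changed count can therefore not be read as particular to the members.

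Liver LO/control (log2) of 13 member probes changed sign when a replicate or pool was left out. Their ranges were -0.37 to 0.22 for *Igf1* A_44_P421502, -0.069 to 0.11 for *Igfbp2*, -0.00071 to 0.27 for *Igfals*, -0.11 to 0.057 for *Socs2*, -0.17 to 0.14 and -0.053 to 0.037 for *Igfbp3*, -0.11 to 0.050, -0.058 to 0.052 and -0.071 to 0.14 for *Ghr*, -1.22 to 0.28 for *Insr*, -0.11 to 0.025 for *Irs1*, and -1.05 to 1.38 and -1.06 to 1.22 for *Irs2*. *Igfbp3* A_42_P627998 was 0.0056 with normexp, and 0.50 for liver against spleen with 75th percentile scaling. With a replicate or pool left out, *Igfbp3* A_44_P180127 ranged from -0.015 to 0.49 in that contrast (0.83 with 75th percentile scaling), and *Irs2* A_44_P257518 from -0.33 to 1.34 against the intestine. Of 459 tissue values of single probes, 419 kept direction and call, 11 lost the call, 26 gained it and 3 changed sign.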
